A study of Mus musculus with 12 samples.

Results

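Cytosolic ribosomal protein genes encode the protein part of the ribosomes that translate in the cytosol. They were taken by symbol, as every gene row named Rpl or Rps with a protein number, together with the stalk proteins Rplp0, Rplp1 and Rplp2 and with Rpsa, and without a pseudogene suffix. Of the 32587 gene rows in each library, 83 met this rule, 32 for the small and 51 for the large subunit. Of the 83, 78 reached 1 TPM in at least 3 libraries and were tested, and 5 of the large-subunit symbols were under that level. TPM expresses the share of a gene's transcripts among all transcripts, corrected for their length.

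Poly(A) RNA was sequenced from WT mouse organoids of the duodenum, miniature gut epithelia kept in culture in a commercial growth medium. Each of 4 groups had 3 libraries, exposed to the vehicle DMSO or to a bile acid: cholic acid, written CA, chenodeoxycholic acid, written CDCA, or deoxycholic acid, written DCA. Every acid is labelled 50 mmol/L, where the unit may be wrong, and the labels disagree on duration, with 2 days in the treatment field and 96 hours, begun after 2 days of culture, in the protocol. Strain and age were not in the labels. CA and CDCA are bile acids made by the liver, CDCA with fewer hydroxyl groups than CA, and DCA is what gut bacteria make from CA by removing a hydroxyl group.

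A ribosome holds a single copy of nearly every one of its proteins, so the genes are known for being expressed together and at high level in growing cells, such as the dividing cells of the intestinal crypt. Their mRNAs begin with a run of pyrimidines at the cap, the TOP motif, through which mTOR signalling and the RNA-binding protein Larp1 control how much of each mRNA is translated. The RNA level measured here is therefore separate from the rate of ribosomal protein synthesis.

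Sequencing depth is unknown, since TPM keeps none, so no counting interval is given. The labels do not say whether the 3 libraries of a group are separate cultures or separate animals, so p-values measure only the spread among them, which may be technical. The 12 libraries summed to 889156 to 936841 TPM, and 11464 to 11711 rows reached 1 TPM in a library. The 8 epithelial markers summed to 3880 to 4618 TPM. Against this, the 8 mesenchymal markers summed to 3.65 to 6.43 TPM, with Dcn at 0 throughout, and the 7 immune markers to 3.37 to 5.83 TPM, with Ptprc no higher than 0.0636 TPM. The duodenal marker Gata4 was at 76.8 to 105 TPM. The ileal marker Fabp6, a bile acid binding protein, was at 0.971 to 2.31 TPM with DMSO, 138 to 306 with CA, 164 to 755 with CDCA and 1100 to 1653 with DCA, and the other ileal marker, Slc10a2, at 0.412 to 0.822 TPM throughout.

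The ribosomal protein genes were among the most abundant transcripts of the organoids. In every library 74 of them were among the 325 highest rows, the top 1% of all rows, and 68 of the 78 tested had a mean of at least 1000 TPM. The mean of a member was 2063 TPM at the median and 5178 TPM for the highest, Rplp1, a protein of the acidic stalk that recruits elongation factors. After Rplp1 came Rps24 at 4922, Rpl13a at 4677, Rps18 at 4543 and Rpl32 at 4542 TPM. These are levels per transcript length, and neighbours in this order differ by less than their spread over libraries. The coefficient of variation over the 12 libraries was 4.41% for the median member, against 15.4% for the median of all 11952 rows tested, most of which have lower levels. Rpl13a, for instance, lay between 4509 and 4822 TPM in all 12 libraries, a coefficient of variation of 1.97%.

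**Figure D1:**
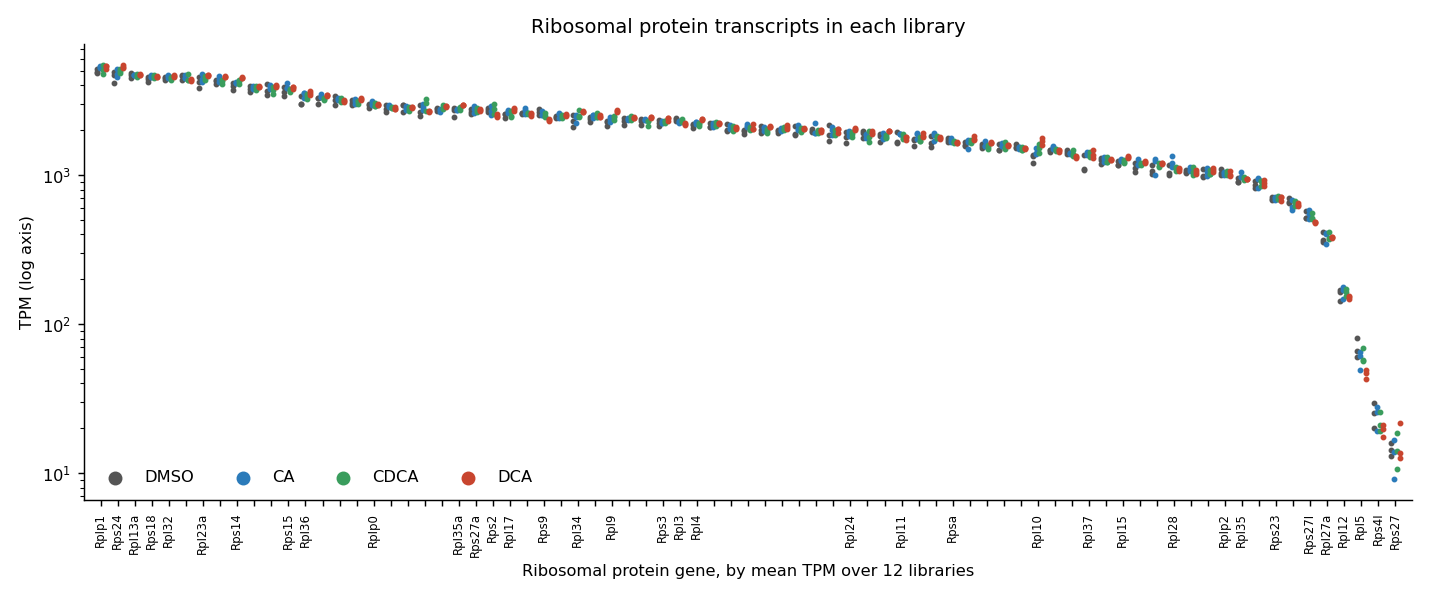
TPM on a log axis of 77 of the 78 tested ribosomal protein genes in each of the 12 libraries, ordered by mean and coloured by group, with names for the genes described in the text. Most genes lie between 1000 and 5178 TPM with the 4 groups close together, and a short tail falls to 14.6 TPM for Rps27.

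The 5 members under the filter were near 0 in nearly every library. Rpl3l, the muscle form of Rpl3, was listed above 0 in 2 of the 12 libraries and at no more than 0.134 TPM. Rpl10l, the testis form of Rpl10, was listed at 0 in all 12. Rpl39l, another testis paralog, reached at most 0.873 TPM, Rpl6l 0.469 TPM and Rpl32l 1.57 TPM, the last in 1 CDCA library. Rps27l, a paralog of Rps27 known as a p53 target, was well expressed at 524 TPM on average, and Rps4l at 22.7 TPM. The coding sequence of Rps27l shares 76.2% of its bases with that of Rps27, and Rpl3l shares 73.0% with Rpl3.

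Several low rows had a near-identical copy elsewhere in the genome that carried the signal instead. Ribosomal protein mRNAs are often copied back into the genome, and 68 of the 80 members with a coding sequence in the GENCODE M21 annotation had at least 1 other row that shared at least 95% of its bases over at least 90% of its length. For 7 members the gene's own row held under 50% of the sum with its copies. Rps27, a zinc-finger protein of the small subunit, is the clearest case. Its row averaged 14.6 TPM and the row of its retrogene Rps27rt 5709 TPM, although their coding sequences of 252 bases are identical. The first 60 coding bases, from the GENCODE M21 transcripts, are shown 5′ to 3′ to make this visible, with bases that differ from Rps27 in capitals. Rps27 lies on the minus strand of chromosome 3, Rps27rt on the minus strand of chromosome 9 and Rps27l on the plus strand of chromosome 9.
Rps27: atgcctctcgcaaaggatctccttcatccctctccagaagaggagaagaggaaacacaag
Rps27rt: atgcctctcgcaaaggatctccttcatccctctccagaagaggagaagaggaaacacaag
Rps27l: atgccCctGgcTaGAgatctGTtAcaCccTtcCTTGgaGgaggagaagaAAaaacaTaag

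Rps27rt shows 0 and Rps27l 18 differences from Rps27 in this stretch, so reads from it cannot be assigned between Rps27 and Rps27rt. The same holds for Rpl5, the 5S RNA partner, at 58.7 TPM beside 3146 TPM for Gm15500, and for Rpl12 at 160 TPM beside 3902 TPM for Gm10275, both annotated as processed pseudogenes with the same coding sequence. Rpl27a stood at 384 TPM beside 3909 for Gm7536, and Rps23 at 698 beside 3098 for Rps23-ps1. Rpl10 stood at 1487 beside 1971 for Rpl10-ps3, and Rpl28 at 1119 beside 1348 for Rpl28-ps1. Rpl11, Rpl23a, Rpl34 and Rpl37 had the same value in all 12 libraries as a row of another name. Levels and changes of the rows of all these members are therefore uncertain.

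Together the members held about 19% of the summed TPM in all 4 groups. The summed share was 18.8, 18.3 and 19.2% in the DMSO libraries, 19.0, 19.1 and 19.4% with CA, 19.5, 18.9 and 19.0% with CDCA, and 19.2, 19.1 and 18.9% with DCA. The means were 18.8% ± 0.411 (SD, n = 3) in DMSO libraries, 19.2% ± 0.183 in CA libraries, 19.1% ± 0.304 in CDCA libraries and 19.1% ± 0.130 in DCA libraries, and the DMSO libraries overlapped those of each acid. No p is given for these sums. With the copy rows added, the means were 21.5% ± 0.507, 22.0% ± 0.307, 22.1% ± 0.299 and 22.1% ± 0.173 in the same order.

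These shares depend on how much mitochondrial RNA a library holds. Mitochondrially encoded rows took 14.6 to 20.1% of the TPM in the 3 DMSO libraries and 11.2 to 12.7% in the 3 DCA libraries, so every DCA library was below every DMSO library. Their mean fell from 17.2% ± 2.74 to 11.8% ± 0.814 (SD, n = 3), and CDCA libraries had 15.9% ± 2.02 and CA libraries 13.6 to 14.4%. With mitochondrial and rRNA rows left out of the total, the members held 23.5, 23.3 and 22.7% in the DMSO libraries and 21.9, 21.8 and 22.4% in the DCA libraries. The DCA libraries were then all below the DMSO libraries, with means of 22.0% ± 0.312 and 23.2% ± 0.408. CA at 22.8% ± 0.201 and CDCA at 23.0% ± 0.278 overlapped DMSO on this scale. Median-ratio scaling leaves the share within a library unchanged. For that scaling the members' scaled sum is given instead, in percent of the mean deposited total of the 12 libraries. It was 17.3 to 19.6% in the DMSO libraries (mean 18.5% ± 1.15) and at least 19.7% in each DCA library (mean 19.9% ± 0.142), without overlap. So DCA overlapped DMSO in the members' share of all rows and lay below it without mitochondrial and rRNA rows. In the median-ratio scaled sum, which is not a share, DCA lay above DMSO.

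**Figure D2:**
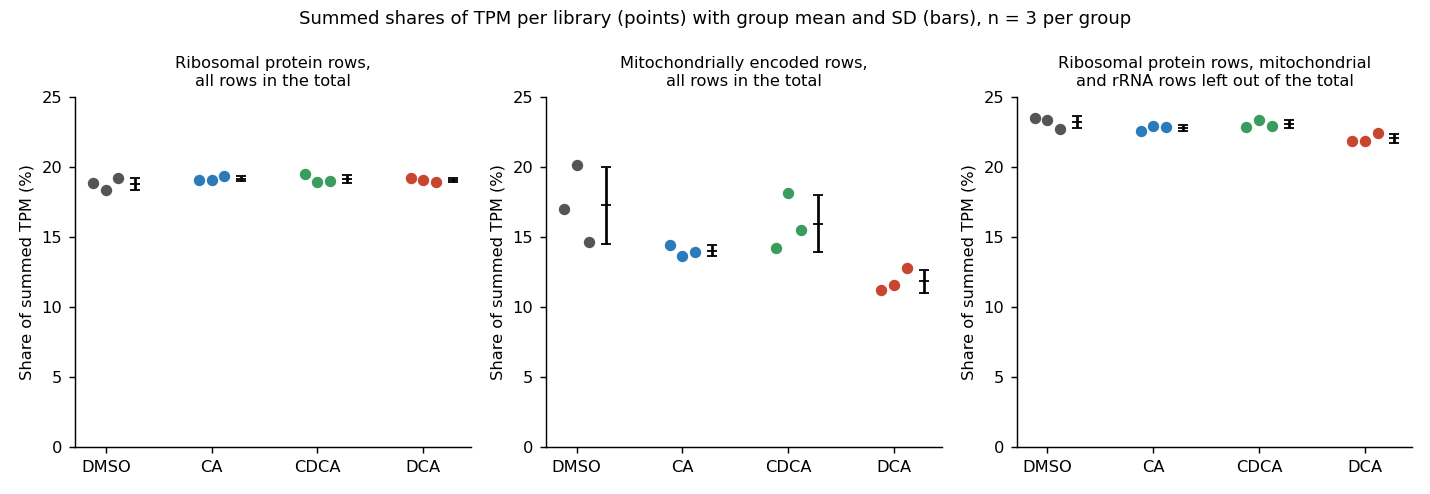
Summed share of TPM in percent per library (points) with group mean and SD (bars), for ribosomal protein rows of all rows, for mitochondrially encoded rows, and for ribosomal protein rows once mitochondrial and rRNA rows are left out. The left panel is level near 19%, the middle falls from 17.2% in DMSO to 11.8% in DCA, and in the right panel the 3 DCA libraries lie below all 3 DMSO libraries.

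The balance between subunits does not depend on that total. The summed TPM of large-subunit members divided by that of small-subunit members was 1.24, 1.26 and 1.27 in the DMSO libraries and 1.30, 1.29 and 1.28 in the DCA libraries. DCA was higher in every library, with means of 1.29 ± 0.00782 and 1.25 ± 0.0154 (SD, n = 3). CA gave 1.28 ± 0.00768, also above DMSO in every library, and CDCA gave 1.27 ± 0.00315. With copy rows summed in, the ratio was 1.30, 1.31 and 1.32 in DMSO and 1.34, 1.34 and 1.33 in DCA, again without overlap, and CA at 1.34, 1.33 and 1.33 was above DMSO as well.

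With CA and CDCA no ribosomal protein gene passed the test, and most differences were small. By limma, a linear model with variances moderated over all rows, and Benjamini-Hochberg adjustment over the 11952 rows, 0 of 78 members passed an adjusted p of 0.05 for CA against DMSO. Of all rows 0.577% passed, a count of 69 that moved to 2 without CA replicate 3, 3 without CA replicate 1, 16 without CA replicate 2, 10 without DMSO replicate 2, 193 without DMSO replicate 1 and 261 without CDCA replicate 3. Leaving out 1 DCA library gave 22 to 36. With CDCA replicate 3 and DMSO replicate 1 left out together the count was 966, 618 higher and 348 lower. The 71 rows called for CDCA against DMSO became 44 without DMSO replicate 2, 47 without CA replicate 3, 41 without CDCA replicate 1 and 46 without DCA replicate 1. Of the members, 6 had an unadjusted p under 0.05, against 14.8% of all rows. For CDCA against DMSO the count was also 0, against 0.594% of all rows, with 3 members at an unadjusted p under 0.05, against 9.77% of rows. Members whose libraries did not overlap numbered 9 higher and 0 lower with CA, against 11.8% and 5.21% of all rows, and 4 higher and 0 lower with CDCA, against 6.97% and 3.03%. The median log2 fold change of the members, on the log2(TPM + 1) scale used for every fold change here, was 0.05 under CA, where all tested rows had 0.03, and 0.02 under CDCA, where all tested rows had 0.02. The 95% interval of the fold change lay within 0.5 log2 units of 0 for 76 members in each comparison. The 3 comparisons with DMSO share their DMSO libraries, so they are not independent of each other.

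Rpl37, a small zinc-binding protein of the large subunit, had the smallest p in CA against DMSO. It was at 1078, 1094 and 1370 TPM in DMSO and at 1424, 1369 and 1386 TPM with CA, a log2 difference of 0.25 (95% interval 0.07 to 0.43, adjusted p = 0.196, limma). DMSO replicate 3 lay within the CA range and the groups overlapped. Without DMSO replicate 3, 1 member was called in CA and 1 in CDCA against DMSO, beside 74 and 65 of all 11952 rows. The largest difference with CDCA was that of Rpl37 at 0.22, and the smallest p that of Rpl10 at 0.21 (adjusted p = 0.283). The one value below -0.2 in either comparison was that of Rpl5 with CA, at -0.23 with an interval of -0.51 to 0.05, and it turned to 0.05 when Rpl5 was summed with its copies.

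DCA moved single ribosomal protein genes up and down by small amounts. Of the 78, 12 were higher and 2 lower at an adjusted p of 0.05 (limma), 17.9% of the members, against 38.0% of all tested rows, of which 18.8% were higher and 19.2% lower. The 12 were Rpl4, Rpl9, Rpl10, Rpl15, Rpl17, Rpl24, Rpl34, Rpl35a, Rpl36, Rpl37, Rps14 and Rps24, with log2 differences of 0.13 to 0.37, and the 2 were Rps9 and Rpl5, the latter in a direction that turned when its copies were summed in. At an unadjusted p under 0.05 there were 22 members, against 46.9% of rows. The members' changes spanned an interquartile range of 0.11 log2 units, against 0.52 for all tested rows, and 71 of 78 members, 91.0%, stayed within 0.2 of 0, against 39.8% of rows. The median was 0.06 for the members and -0.02 for all rows. Members whose 3 DCA and 3 DMSO libraries did not overlap numbered 29 higher and 6 lower, against 24.2% and 26.0% of all rows.

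**Figure D3:**
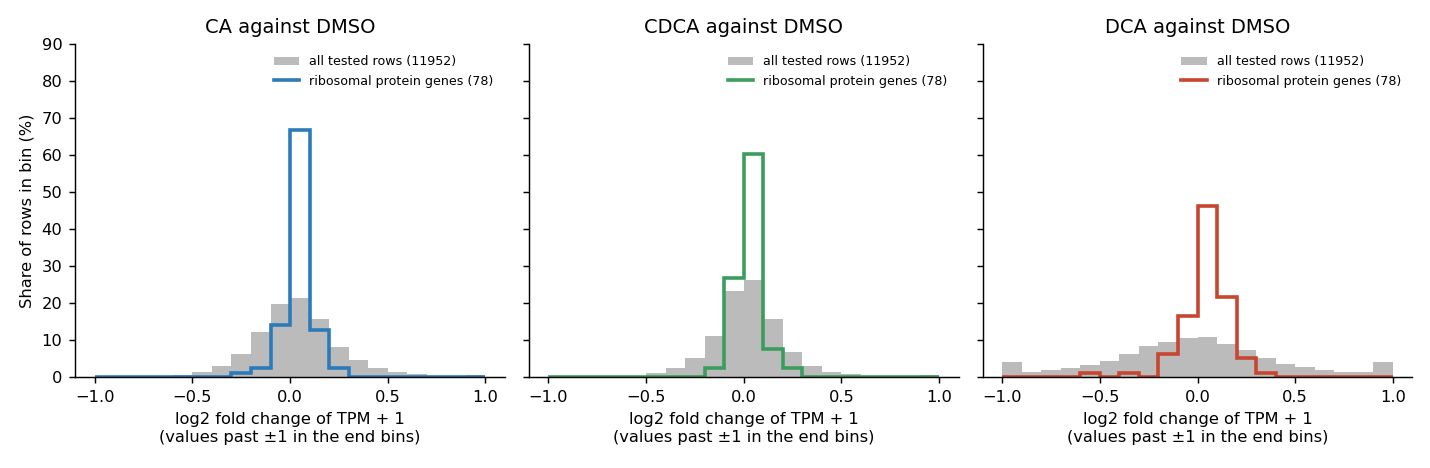
Share of rows, in percent, per bin of 0.1 log2 units of the fold change against DMSO, for the 78 ribosomal protein genes (line) and the 11952 tested rows (grey), for CA, CDCA and DCA. The ribosomal protein genes form a narrow peak near 0 in all 3 panels, while the grey distribution is widest with DCA.

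The split between higher and lower calls turned with the rows counted in the total. Once mitochondrial and rRNA rows were removed, 2 members were higher and 26 lower with DCA, against 48.3% of all rows, of which 14.2% were higher and 34.0% lower. The median of all rows moved from -0.02 to -0.15 on that scale and the median of the members to -0.08. Each library is rescaled by a single factor, which by construction shifts all but low rows nearly alike. That the members stayed above the median row is therefore not a further result. With each library rescaled to a common total the split was 6 higher and 7 lower, against 40.8% of rows, 17.2% higher and 23.6% lower. With median-ratio scaling it was 19 higher and 2 lower, against 45.2% of rows, 23.7% higher and 21.5% lower. Rpl9, Rpl10, Rpl5 and Rps9 passed the threshold in the same direction on all 4 scales. Rplp0, Rpl11, Rpl35 and Rps23 had differences of 0.02, 0.02, 0.03 and 0.01 on the deposited scale and fell by 0.12, 0.13, 0.11 and 0.13 without mitochondrial and rRNA rows, with adjusted p-values of 0.0109 to 0.0446 (limma). Whether mitochondrial RNA fell in amount or other RNA rose cannot be told apart from shares.

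**Figure D4:**
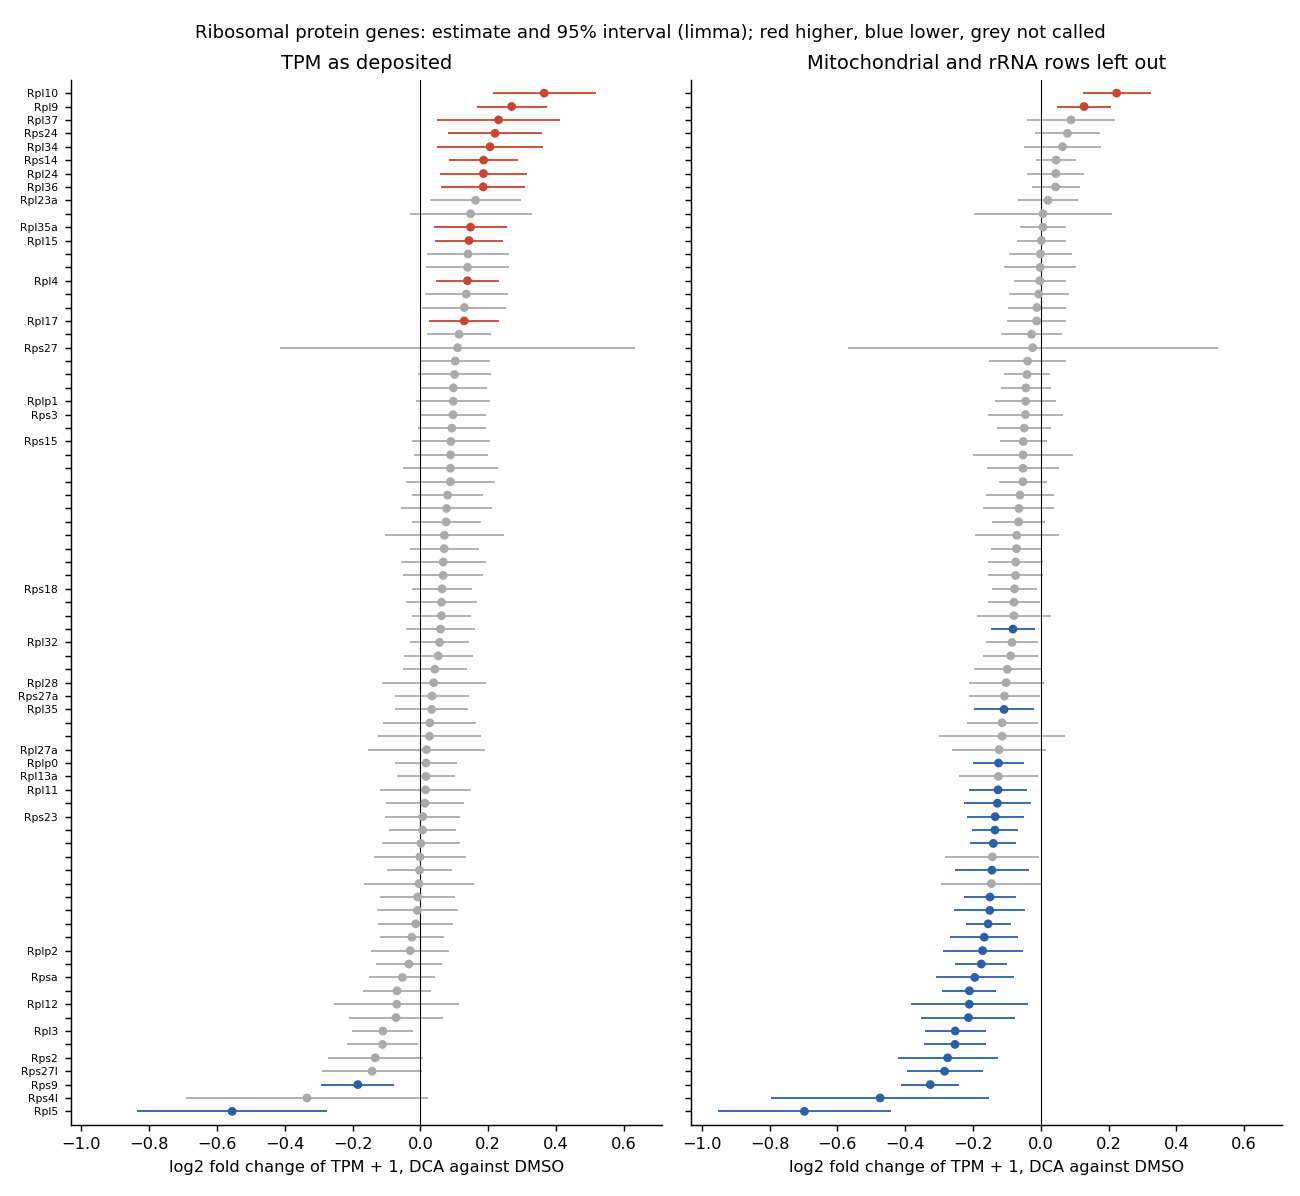
log2 fold change of TPM + 1 between DCA and DMSO for 77 of the 78 tested members, with 95% intervals from limma, for TPM as deposited (left) and after removal of mitochondrial and rRNA rows (right). Red marks genes called higher, blue lower and grey not called: 12 and 2 on the left become 2 and 26 on the right, with Rpl9 at 0.27 and 0.13 and Rps9 at -0.18 and -0.33. The Rpl5 row, lower in both panels, turns to 0.14 when summed with its copies.

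Rpl9, a large-subunit protein near the stalk base, had the smallest p and was called higher with DCA in each of the 24 alternatives run. It was at 2263, 2144 and 2300 TPM in DMSO, 2262, 2395 and 2443 with CA, 2478, 2335 and 2438 with CDCA, and 2740, 2678 and 2663 with DCA. All DCA libraries were above all 9 others. Against DMSO the log2 difference was 0.27 ± 0.05 (SE, adjusted p = 0.000935, limma), or 20.5%, and 0.13 without mitochondrial and rRNA rows. Its copy rows held little, since its own row was 99.9% of the sum.

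Rpl10, which joins the large subunit in a late step of assembly, showed the largest rise. It was at 1335, 1211 and 1373 TPM in DMSO, 1416, 1380 and 1528 with CA, 1612, 1404 and 1530 with CDCA, and 1773, 1696 and 1580 with DCA. Each acid's libraries were above all DMSO libraries, and DCA replicate 3 lay within the CDCA range. The difference was 0.37 ± 0.07 (SE, adjusted p = 0.00155, limma) for DCA. It was 0.14 for CA and 0.21 for CDCA, which did not pass. Summed with its copies, chiefly Rpl10-ps3, it was 0.16 (adjusted p = 0.0201), and 0.02 (adjusted p = 0.657) when mitochondrial and rRNA rows were left out as well.

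Rps9, an early-binding protein of the small subunit, was the clearest fall. It was at 2543, 2652 and 2791 TPM in DMSO, 2693, 2516 and 2512 with CA, 2610, 2442 and 2508 with CDCA, and 2365, 2313 and 2344 with DCA. All DCA libraries were below all 9 others. The log2 difference was -0.18 ± 0.05 (SE, adjusted p = 0.011, limma), and -0.33 without mitochondrial and rRNA rows. The call was lost by limma without trend and robust moderation (adjusted p = 0.0707).

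Rps14 and Rps24, both of the small subunit, were higher with DCA. In human, loss of a copy of RPS14 and mutation of RPS24 each occur in blood disorders of the ribosome. Rps14 was at 3933, 3721 and 4172 TPM in DMSO and at 4456, 4540 and 4447 with DCA, a difference of 0.19 (adjusted p = 0.00776, limma). Rps24 was at 4670, 4115 and 4927 TPM in DMSO and at 5440, 5284 and 5208 with DCA, a difference of 0.22 (adjusted p = 0.0158). Neither gene's groups overlapped. Without mitochondrial and rRNA rows they stood at 0.04 (adjusted p = 0.193) and 0.08 (adjusted p = 0.162) and neither was called. Of the 14 calls, Rpl5, Rpl9, Rpl10, Rps9 and Rps14 kept theirs with any 1 of the 12 libraries left out. The other 9 lost it without at least 2 libraries, Rps24 without DMSO replicate 2 or DCA replicate 1. The count of 14 fell to 9, 7, 5, 6 and 8 without DMSO replicate 1, DMSO replicate 2 and DCA replicates 1, 2 and 3, and rose to 21 without DMSO replicate 3. Over all rows the 4545 calls became 4896, 3730, 3463, 3431 and 3781 in the same order, and 4186 without DMSO replicate 3.

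Summing each member with its copy rows changed the reading of Rps27 and Rpl5. The summed Rps27 signal, nearly all of it in the Rps27rt row, was at 5093, 4692 and 5355 TPM in DMSO, 4943, 5451 and 5682 with CA, 6024, 5777 and 6018 with CDCA, and 6719, 6510 and 6421 with DCA. All DCA libraries were above all 9 others, and all CDCA libraries above all of CA and DMSO. The difference was 0.38 for DCA (95% interval 0.25 to 0.50, adjusted p = 0.000383, limma), 0.24 for CDCA (adjusted p = 0.115) and 0.09 for CA (adjusted p = 0.522). Without mitochondrial and rRNA rows it was 0.24 for DCA (adjusted p = 0.00142). The Rps27 row alone, at 9.11 to 21.8 TPM, showed 0.11 with an interval of -0.41 to 0.63.

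The Rpl5 row was at 59.8, 65.9 and 81.1 TPM in DMSO and at 47.0, 42.7 and 49.2 TPM with DCA, without overlap, a difference of -0.56 (adjusted p = 0.00495, limma). CA was at 49.5, 61.0 and 64.8 TPM and CDCA at 68.9, 56.2 and 57.7 TPM. All DCA libraries were below all 9 others in the row's own values. Summed with Gm15500 and 3 further copies, Rpl5 turned to a difference of 0.14 (adjusted p = 0.0385), and to -0.0029 (adjusted p = 0.95) when mitochondrial and rRNA rows were also left out. Rpl5 joins Rpl11 and the 5S RNA in the particle that can hold back Mdm2, the inhibitor of p53. Rpl11 itself was at 1649, 1679 and 1948 TPM in DMSO and at 1802, 1797 and 1721 TPM with DCA, and the groups overlapped. With copies summed, the 78 members counted 15 higher and 2 lower with DCA, 12 of the higher shared with the count by row, against 38.5% of rows, 18.9% higher and 19.5% lower.

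**Figure D5:**
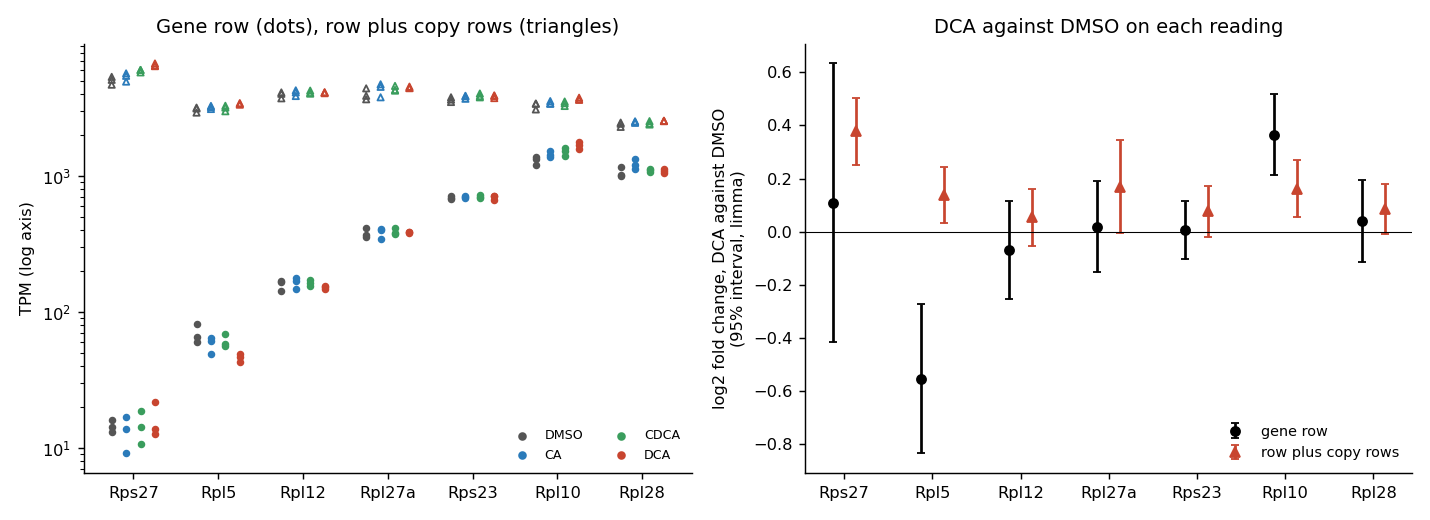
Left, TPM on a log axis of the 7 members whose own row holds under 50% of the sum with copy rows, in each library, for the row (dots) and the sum (triangles). Right, DCA against DMSO as log2 fold change with 95% intervals: the sum turns Rpl5 from -0.56 to 0.14 and brings Rps27 to 0.38 with a narrow interval.

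By place in the ribosome, the stalk showed no call with any acid on the deposited scale: Rplp0 differed by 0.02, Rplp1 by 0.10 and Rplp2 by -0.03 with DCA. Without mitochondrial and rRNA rows, Rplp0 and Rplp2 were called lower with DCA, as were 34.0% of all rows. Of 9 proteins at the exit tunnel, where the new chain leaves the ribosome, 2 rose with DCA, Rpl4 at 0.14 (adjusted p = 0.0219) and Rpl17 at 0.13 (adjusted p = 0.0486, limma), a share close to the 18.8% of all rows called higher. The other 7 had positive values up to 0.16 for Rpl23a (adjusted p = 0.054), and all 9 together had a median of 0.13. Rpl4 was at 2197, 2075 and 2158 TPM in DMSO and at 2376, 2364 and 2337 TPM with DCA, without overlap. Rpl4 and Rpl17 stood at -0.0029 and -0.01 without mitochondrial and rRNA rows, so their direction depended on the total.

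Of the 4 proteins of the mRNA channel and decoding region, 0 passed with DCA on the deposited scale and 0 had an unadjusted p under 0.05 (limma). Rps2, at the channel entrance, was at 2633, 2751 and 2803 TPM in DMSO and 2480, 2435 and 2549 TPM with DCA, without overlap, at -0.13 (adjusted p = 0.124). Rps3, Rps15 and Rps23 had values of 0.10, 0.09 and 0.01. Without mitochondrial and rRNA rows Rps2 and Rps23 were called lower, as were 34.0% of all rows. Rps2 was also called lower when rescaled to a common total, and Rps15 was called higher with median-ratio scaling. Rps27a, made as a fusion with ubiquitin, differed by 0.03 (95% interval -0.07 to 0.14). The paralogs Rps27l and Rps4l had -0.14 (adjusted p = 0.117) and -0.33 (adjusted p = 0.128), and both were called lower without mitochondrial and rRNA rows. Counted by subunit, 2 of 32 small-subunit members were higher and 1 lower with DCA, and 10 of 46 large-subunit members higher and 1 lower, against 18.8% and 19.2% of all rows.

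The 3 acids were also compared with one another at the same labelled dose and time, 3 pairs in all. CDCA against CA gave 0 calls among the 78 members and 0 at an unadjusted p under 0.05 (limma), against 0.0335% of rows called and 7.2% at an unadjusted p under 0.05, and the largest difference was -0.15 for Rpl28, with an interval of -0.30 to 0.01. For 77 members the interval lay within 0.5 log2 units of 0. DCA against CA gave 1 call, Rpl9 higher by 0.19 (95% interval 0.08 to 0.29, adjusted p = 0.0229), against 14.7% of rows, 5.79% higher and 8.94% lower. Rpl10 followed at 0.22 (adjusted p = 0.0501). DCA against CDCA gave 2, Rpl9 higher by 0.16 (adjusted p = 0.0275) and Rpl5 lower at -0.39 (95% interval -0.67 to -0.11, adjusted p = 0.042), against 27.8% of rows, 12.8% higher and 15.0% lower. The Rpl5 difference turned to 0.11 with its copies summed. At an unadjusted p under 0.05 there were 8 members in each of these pairs, against 30.6% and 39.5% of rows. The counts over all rows moved by more than 1.5 times as well. The 1761 for DCA against CA became 572 to 1107 without any 1 of the 6 libraries compared. That count rose to 3401 with only the 6 libraries compared and to 2830 with CDCA replicate 3 and DMSO replicate 1 left out together. The 3322 for DCA against CDCA became 2022 to 2192 without CDCA replicate 1 or 2 or DCA replicate 1 or 2. The 4 for CDCA against CA became 34 without CDCA replicate 3 and 7 without DMSO replicate 2. They became 440 with CDCA replicate 3 and DMSO replicate 1 left out together.

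The acid pairs also depended on whether mitochondrial and rRNA rows were counted. Once those rows were removed, DCA against CA gave 2 higher and 12 lower members, against 22.8% of rows, 5.46% higher and 17.4% lower. DCA against CDCA gave 0 higher and 14 lower, against 38.8% of rows, 10.9% higher and 27.9% lower. Rpl9 lost its call against CA without CA replicate 1, CA replicate 2 or any 1 of the 3 DCA libraries, with an adjusted p of up to 0.0934. Against CDCA it lost it without CDCA replicate 2 or any 1 DCA library, with an adjusted p of up to 0.116. DCA, which lacks a hydroxyl group of CA, differed from CA in the summed Rps27 signal by 0.29 (adjusted p = 0.00801) and from CDCA by 0.14 (95% interval 0.02 to 0.27, adjusted p = 0.0876). Without mitochondrial and rRNA rows the 2 values were 0.23 (adjusted p = 0.00608) and 0.04 (adjusted p = 0.48).

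Many genes that build ribosomes were lower with DCA, and are given here beside the ribosomal protein genes without a test of the difference between the lists. Of all rows, 18.8% were higher and 19.2% lower with DCA, and without mitochondrial and rRNA rows 14.2% were higher and 34.0% lower. Of 40 ribosome biogenesis genes, which process rRNA and assemble subunits in the nucleolus, 26 were lower and 0 higher with DCA against DMSO, and 14 did not pass, with a median of -0.42. Dkc1, the pseudouridine synthase of the box H/ACA particles, fell by 0.97 from 47.3 to 23.4 TPM (group means, adjusted p = 0.000519, limma), and its partner Gar1 fell by 0.92. Nop58 and Fbl, of the box C/D particles that methylate rRNA, fell by 0.78 and 0.68, and Gnl3, nucleostemin, by 0.68. Of 19 subunits and factors of RNA polymerase I, which transcribes rRNA, 6 were lower and 0 higher, among them Polr1b at -0.74 (adjusted p = 0.00149). In CA and CDCA against DMSO neither list had a call, against 0.577% and 0.594% of all rows. At an unadjusted p under 0.05 (limma) there were 2 and 1 of the 40 biogenesis genes, against 14.8% and 9.77% of all rows. Without mitochondrial and rRNA rows, 37 of the 40 and 11 of the 19 were lower with DCA and 0 higher.

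Regulators of the pathway changed singly. Of 17, the transcription factor Myc fell by 1.04 with DCA, from 34.2 to 16.1 TPM (group means, adjusted p = 0.000134, limma), and its relative Mycn rose by 0.84, from 3.23 to 6.57 TPM (adjusted p = 0.00483). The kinase Mtor, at 0.30 (adjusted p = 0.187), and Eif4ebp1, the translational repressor under it, at 0.18 (adjusted p = 0.116), did not pass. Of 22 translation factors and other genes whose mRNAs also carry the TOP motif, 4 rose with DCA and 1 fell, against 18.8% and 19.2% of all rows. Eef1a1 rose by 0.24, Eef2 by 0.19, Eif4a2 by 0.57 and Tpt1 by 0.22, and Gas5, a TOP host transcript of small nucleolar RNAs, fell by 0.29. The list's median was 0.02. Without mitochondrial and rRNA rows the split turned to 1 higher and 8 lower, and the 17 regulators gave 1 higher and 5 lower. On that scale 14.2% of all rows were higher and 34.0% lower, so the turn is shared with the rows as a whole.

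Of 79 proteins of the mitochondrial ribosome, which translates inside mitochondria, 6 were higher and 8 lower with DCA, against 18.8% and 19.2% of all rows, with a median of -0.07. Mrpl30 rose by 0.52 and Mrpl13 fell by 0.32, and without mitochondrially encoded and rRNA rows 3 were higher and 37 lower, against 14.2% and 34.0% of rows. Of 7 ribosomal protein genes whose names fall outside the rule, 1 rose with DCA, Fau, a ubiquitin-like fusion of a small-subunit protein, from 2350 to 2888 TPM (group means, 0.30, adjusted p = 0.00358, limma). Without mitochondrially encoded and rRNA rows, 1 of the 7 was higher and 4 lower.

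Markers of cell state moved with DCA beside these results. Of 20 proliferation genes all 20 were lower with DCA against DMSO, from a summed 1318 to 1753 TPM in the DMSO libraries to 739 to 754 TPM. Of 11 stem cell markers 10 were lower, from 545 to 1107 to 177 to 199 TPM, and of 15 enterocyte markers 14 were higher, from 2000 to 3262 to 5851 to 7821 TPM. Among all rows, 18.8% were higher and 19.2% lower with DCA. In bulk RNA, fewer cells of a type and less RNA per cell cannot be told apart. The part of these shifts in the results on ribosomal protein genes was not tested. CA and CDCA gave 0 calls in the proliferation list, against 0.577% and 0.594% of all rows. At an unadjusted p under 0.05 (limma) there were 11 and 2 of 20, against 14.8% and 9.77% of all rows.

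The sequences around the annotated transcription starts were searched for runs of C and T. The search does not test for the TOP motif itself, which begins at the cap, since it takes a run that starts up to 10 bases either side of the annotated start. The RefSeq promoter table on GRCm38.p6 held 61 of the 83 members, with 73 start windows. In 41 windows, 56.2%, a C within 10 bases of the start was followed by at least 4 further bases that are all C or T, against 30.7% of the 32851 windows of all genes. The letters CTTTCC, on the gene's strand, stood in 38.4% of member windows against 14.1% of all, CCGGAAG on either strand in 35.6% against 8.86%, and AAGATGGC on either strand in 9.59% against 2.75%. These 3 were searched over the whole stretch of 300 bases that the table gives around a start, and overlap of the motifs with one another was allowed. Windows of 30 bases, 10 before the start and 20 from it, are shown 5′ to 3′ for members described above, with the C/T run in capitals: first 4 with a run and then 4 without.
Rps24, chr14:24490668-24490697, plus strand: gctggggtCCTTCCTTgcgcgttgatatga
Rps9, chr7:3704031-3704060, plus strand: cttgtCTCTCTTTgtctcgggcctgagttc
Rps27, chr3:90213629-90213658, minus strand: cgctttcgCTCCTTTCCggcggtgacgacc
Rpl28, chr7:4792955-4792984, plus strand: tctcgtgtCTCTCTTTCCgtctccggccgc
Rpl4, chr9:64173377-64173406, plus strand: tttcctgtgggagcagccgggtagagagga
Rpl5, chr5:107900518-107900547, plus strand: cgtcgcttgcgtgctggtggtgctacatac
Rpl9, chr5:65391412-65391441, minus strand: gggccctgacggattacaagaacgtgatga
Rpl10, chrX:74270806-74270835, plus strand: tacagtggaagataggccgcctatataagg

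Rps24 has a further annotated start whose window holds no run. A window without the run says only that these letters are not at the start as annotated in that table. Of the members shown with a run, Rps24 was called higher and Rps9 lower with DCA on the deposited scale. The rows of Rps27 and Rpl28 were not called. Of those without a run, Rpl4, Rpl9 and Rpl10 were called higher and the Rpl5 row lower. Rps24 and Rpl4 had no call without mitochondrial and rRNA rows. The windows shown are of members described above, not a sample of all members. A link between a run and the change with DCA was not tested. Of the 35 tested members with a run, 4 were higher and 1 lower with DCA, with a median of 0.04. Of the 22 tested members with none, 5 were higher and 1 lower, with a median of 0.07. Of all rows 18.8% were higher and 19.2% lower. These counts are on the deposited scale and were not made without mitochondrial and rRNA rows.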

How the data were processed

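The deposited values, one file for each library listing gene symbols, are in TPM as made by the authors; no header names the unit, which was read from non-integer values with similar sums. Salmon 1.8.0 and genome build GRCm39 come from the submitters' processing notes; annotation, strand setting and the step from transcripts to genes were not given in the sources used here. Poly(A) RNA and strand-marked libraries are given by the labels' protocols. As a share, a TPM value moves with any abundant RNA in the library. Of 4802 rows with a mean of at least 20 TPM, 4 were at 0 in a library, and a listed 0 may reflect a failed estimate.

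Groups came from the sample titles. The plan named a count model for counts and limma for TPM, and limma was used. It was run on log2(TPM + 1); the filter kept rows reaching 1 TPM in 3 or more libraries, and limma 3.58.1 under R 4.3.3 fitted 4 group means to the 12 libraries (trend and robust moderation, two-sided, Benjamini-Hochberg within each of 6 comparisons, threshold 0.05). In simulated data of 11952 genes with 200 changed, a change of 1 log2 unit was recovered for 87% of genes in the CA, 86% in the CDCA and 89% in the DCA comparison with DMSO, and a change of 0.5 for 47%, 44% and 35%. The changed genes were drawn from all tested rows, so these rates do not describe the members. In the data 4545 rows were called for DCA against DMSO, many more than were changed in the simulation, so the rates do not carry over to that comparison.

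Copy rows were found with blastn 2.17.0, matching each member's coding sequence from GENCODE M21 (GRCm38) to that annotation's transcripts, at 95% identity and 90% coverage. Rows with values identical to a member's were not added to its sum. Coordinates of start windows are those of the RefSeq table on GRCm38.p6, not of the build used by the authors. RefSeq proteins were not used here. Python 3.11.15, pandas 2.3.3 and matplotlib 3.10.9 made summaries and figures.

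Members and lists were chosen with earlier results of these data known. Members named with values were those of the role lists, the 8 highest and 8 lowest levels, the 8 smallest p of each comparison with DMSO and the 5 of each between acids, the extremes of each comparison and those under the filter, and of other lists up to 5 with the smallest p; the remaining called members and the members that share values with another row are named for completeness, chosen after their values were seen. Alternatives were no filter, median-ratio scaling, mitochondrial and rRNA rows left out, rescaling to a common total, 0.1 as the pseudocount, a block for replicate number, only the 6 libraries compared, limma without trend and robust moderation, each library left out, CDCA replicate 3 and DMSO replicate 1 left out together and, for the summed share, pseudogene symbols and members outside the rule added; sums with copy rows and the removal of mitochondrial copy rows were added after seeing the data. Some items are not reported here.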

Additional observations from a re-analysis of the deposited data

How the results depend on the processing

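Counts of members called changed by more than 1.5 times mainly where DCA was compared. For DCA against DMSO the 14 became 28 (2 higher, 26 lower) without mitochondrial and rRNA rows, 30 (2 and 28) when mitochondrial copy rows were left out too, 27 (3 and 24) when copy rows were summed as well, 7 with only the 6 libraries compared, 3 with limma without trend and robust moderation, and 5 to 21 with 1 library left out. Over all tested rows the 4545 became 5761, 5903 and 5765 in the 3 settings without mitochondrial rows. That count was 4011 with only the 6 libraries compared, 4488 without trend and robust moderation, and 3431 to 4896 with 1 library left out. DCA against CA gave 7 with median-ratio scaling, 14, 13 and 12 in the 3 settings without mitochondrial rows, 4 rescaled to a common total, 2 with a pseudocount of 0.1, 6 with only the 6 libraries compared, 0 without trend and robust moderation, 2 without CDCA replicate 3 and DMSO replicate 1, 2 with copy rows summed, and 0 to 2 with 1 library left out. Over all rows the 1761 became 2528 with median-ratio scaling, 2727, 2773 and 2742 without mitochondrial rows, and 2049 rescaled. That count was 1781, 3401, 1619, 2830 and 1783 in the settings that follow, in the same order, and 572 to 2256 with 1 library left out. DCA against CDCA gave 10, 14, 17, 15 and 6 in the same order of scalings, 1 without the filter, 0 without trend and robust moderation, 5 without CDCA replicate 3 and DMSO replicate 1, 1 with copy rows summed, and 0 to 5 with 1 library left out. Over all rows the 3322 became 4137, 4629, 4884, 4662 and 3656 in that order of scalings. That count was 2932, 3276, 4429 and 3331 in the settings that follow, in the same order, and 2022 to 3943 with 1 library left out. CA and CDCA against DMSO gave 0 to 1, and CDCA against CA stayed at 0 in all 24 alternatives. Counts over all rows in these alternatives were 2 to 966, 22 to 90 and 2 to 440 for the same comparisons in order. No pairing by replicate number was seen: 3 of 18 same-number correlations of deviations from the group means were over 0.1 (range -0.38 to 0.11). Those between different numbers ranged from -0.25 to 0.43. With 3 libraries in a group, this check cannot exclude a shared batch or animal. With the replicate block DCA against DMSO gave 10 higher and 2 lower, and DCA against CDCA 1, beside 4134 and 2910 of all rows. The summed share in DMSO, CA, CDCA and DCA was 23.2, 22.8, 23.0 and 22.0% without mitochondrial and rRNA rows. It was 20.9, 21.3, 21.3 and 21.3% with outside members and pseudogene symbols added, and 21.5, 22.0, 22.1 and 22.1% with copy rows summed. Median-ratio scaling leaves the share unchanged, and there the scaled sum was 18.5, 18.8, 18.7 and 19.9% of the mean deposited total. In that sum every DCA library was above every DMSO library. Among the members named by the rule above, and with a call on either scale, signs turned in DCA against DMSO in 3 settings. These were without mitochondrial and rRNA rows, without mitochondrial copy rows too, and with copy rows summed on the first of these scales. Signs turned for Rpl11 (-0.13, -0.14, -0.13), Rpl17 (-0.012, -0.021, -0.013) and Rpl35 (-0.11, -0.12, -0.11). They also turned for Rpl4 (-0.0029, -0.012, -0.0029) and Rplp0 (-0.12, -0.13, -0.12). Rps18 turned in the last 2 settings (-0.087, -0.078) and Rps23 in the first 2 (-0.13, -0.14). Of the 12 members called higher with DCA, 2, 4 and 3 had a negative value in the 3 settings, so members not listed here turned as well. Summed with copy rows, Rpl5 turned to 0.14 against DMSO and to 0.11 against CDCA, and to 0.0062 against CDCA without mitochondrial and rRNA rows. The removed rows hold a smaller share in DCA, which by construction lowers every other DCA value; for the remaining changes the cause was not tested. Unknown depth limits what low rows such as Rps27 and Rps4l can show.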
